A study of Danio rerio with 16 samples.

Results

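The 126 genes described here were low in zebrafish somatic cells up to 24 hours post fertilisation (hpf) and were detected in both somatic libraries at 36 hpf. They were chosen from 34289 gene identifiers by their level in the somatic libraries alone, in CPM, the counts of a gene scaled to a common library total. Each gene had less than 3 CPM in every somatic library of 4, 7 and 24 hpf, and at least 5 CPM in both somatic libraries of 36 hpf. The rule would have kept the 150 genes with the highest mean CPM in soma at 36 hpf, but fewer met it and all were kept. Because the somatic values chose the genes, these values are given as a description without a test, whereas the values in primordial germ cells (PGCs) were not used by the rule.

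PGCs and somatic cells were separated by fluorescence-activated cell sorting at 4, 7, 24 and 36 hpf, which are the blastula, gastrula and pharyngula prim-5 and prim-25 stages. This gave 8 groups of 2 libraries, and the replicates were described as biologically independent. The paper states that N-phenylthiourea was used against pigmentation in embryos past 24 hpf. Groups of 36 hpf may thus differ from those of 24 hpf by this treatment as well as by stage, which cannot be told apart. All groups came from 1 transgenic line that carries kop-EGFP-F'-nos3-'UTR together with cry-DsRed, so soma and PGCs carried the same transgene. The kop promoter and the nos3 3′ untranslated region place the green label in germ cells, and the cry promoter drives the red label. The cry promoter is a crystallin promoter, active in the lens, and no untransgenic animals were compared. A library labelled as soma of 24 hpf, replicate 1, carries a source name of PGCs in a single label. It was used as soma, since its title and cell type say so, and its 18 germ line markers summed to 27.1 CPM against 31.1 CPM in replicate 2.

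By the second day a zebrafish embryo has its body plan and its tissues turn on the proteins of their final function. Lens fibre cells fill with crystallins, water-soluble proteins that give the lens its refractive power. Neurons assemble synapses from receptors, scaffolds and vesicle proteins, and in the retina and the pineal organ the crx and otx family of homeodomain factors switches on photoreceptor genes. PGCs have by then reached the gonadal region and stay undifferentiated, with germ plasm and piRNA pathway genes as their marks.

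Library totals ran from 2825775 to 15633266 expected counts, with 8335252 to 15633266 at 36 hpf. The first threshold corresponded to 8.47 to 20.8 counts in the somatic libraries of 4 to 24 hpf, and the second to 32.3 to 40.6 counts in those of 36 hpf. Genes near the thresholds are therefore separated from those outside by few reads. PTF1A, a pancreas and cerebellum transcription factor gene, had 9.36 and 4.96 CPM in soma at 36 hpf and was left out, whereas LINGO1, a neuronal membrane protein gene, had 5.05 and 5.73 CPM and was kept. Both brinp2 and si:dkeyp-72g9.4 were left out at 4.96 CPM in replicate 2, and B3GAT1 and PDPK1 were kept at 5.11 CPM. At the lower threshold IQSEC3, myripb and JAKMIP1 were kept with a highest early value of 2.96 CPM, and si:dkey-4e7.3, ADCYAP1R1 and ADGRL1 were left out at 3.05 CPM.

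The median level of the 126 genes was 0 CPM in all 8 libraries of 4 and 7 hpf, in soma and PGCs. It was 0.964 and 1.63 CPM in soma at 24 hpf and 9.97 and 7.43 CPM in soma at 36 hpf. In PGCs the median was 2.14 and 1.95 CPM at 24 hpf. The rule held soma under 3 CPM at that stage, so nothing is read from the lower somatic medians. At 36 hpf the median was 9.05 CPM in PGC replicate 1 and 4.56 CPM in replicate 2. The PGC replicates thus stood apart at 36 hpf, replicate 1 near the somatic libraries and replicate 2 below them.

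**Figure D1:**
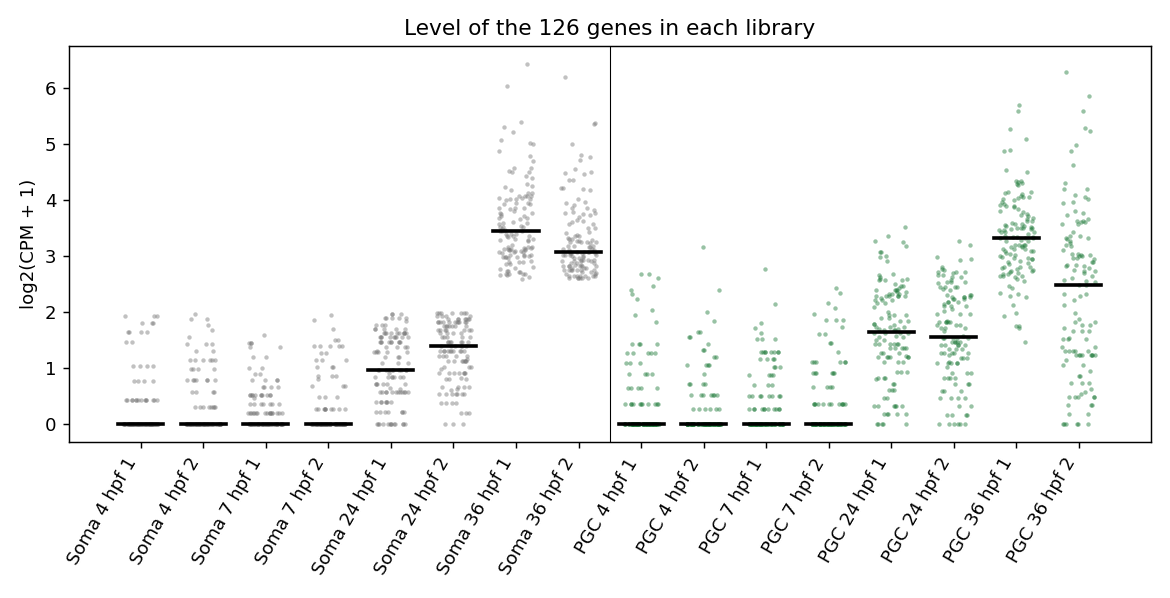
Level of each of the 126 genes as log2(CPM + 1) in the 16 libraries, with soma in grey, PGCs in green and the median of each library as a black bar. The medians are 0 CPM at 4 and 7 hpf, and at 36 hpf 9.97 and 7.43 CPM in soma against 9.05 and 4.56 CPM in PGCs.

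The difference between 24 and 36 hpf in soma was large for some genes and small for others. Of the 119 genes with more than 3 counts in a somatic library of 24 hpf, the ratio of the somatic means at 36 and 24 hpf ran from 2.59 to 50.1, with a median of 6.98. The ratio was over 10 for 40 of these genes and under 4 for 19. The lens filament gene BFSP1 had the ratio of 2.59, with 2.09 and 2.67 CPM at 24 hpf against 5.17 and 7.12 CPM at 36 hpf, so that it was already present below the threshold. The uncharacterised gene ENSDARG00000095715 had the ratio of 50.1, from 0.803 and 0.444 CPM to 41.1 and 21.4 CPM. The other 7 genes had at most 3 counts in each somatic library of 24 hpf, and MIP alone among them had none in either. Measured against a floor of 3 counts per library, MIP, which encodes the major intrinsic water channel of lens fibres, was at least 16.6-fold higher in soma at 36 hpf.

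Nearly all of the genes were also low in early PGCs. All 4 PGC libraries of 4 and 7 hpf were under 3 CPM for 112 genes, and 47 genes had no count in any of them. Only 5 genes reached 5 CPM in an early PGC library, among them SLC1A3 with 5.4 CPM in a single library of 4 hpf and PNP, a purine nucleoside phosphorylase gene, with 5.82 CPM in a single library of 7 hpf. Across the 16 libraries 3 counts came to between 0.254 and 1.06 CPM, so these early values rest on few reads.

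The lens supplied the group with the clearest common function. Of 67 genes in a list of crystallins and lens fibre genes, 9 met the rule. Of the rest, 4 had already reached 3 CPM in soma by 24 hpf and 54 did not reach 5 CPM in both libraries of 36 hpf. The 9 were the beta crystallin genes CRYBB1, crybb1l2, cryba1b, cryba1l1, CRYBA2 and CRYBA4, the gamma crystallin gene CRYGN, MIP and BFSP1, which encodes the beaded filament protein filensin. Crystallin genes are related in sequence, and the quantification can share out reads that fit several genes, which gives fractions. The expected counts of these 9 genes were whole numbers in every library, so no such sharing is seen in them. Whether reads were placed on the right gene was not tested.

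CRYBB1 had 18.5 and 40.4 CPM in soma at 36 hpf and 22.3 and 1.07 CPM in PGCs, after 0.779 and 0.509 CPM in PGCs at 24 hpf. For cryba1b the values were 14.2 and 26.8 CPM in soma and 14.0 and 0.403 CPM in PGCs at 36 hpf. For crybb1l2 they were 14.3 and 21.7 CPM in soma and 16.5 and 1.48 CPM in PGCs. In each of these genes PGC replicate 1 was close to somatic replicate 1, whereas PGC replicate 2 was near its 24 hpf level. MIP followed with 8.0 and 14.4 CPM in soma and 3.81 and 0 CPM in PGCs at 36 hpf, after 0 CPM in both PGC libraries and both somatic libraries of 24 hpf. CRYGN, with 8.12 and 19.5 CPM in soma, and CRYBA2, with 8.86 and 14.1 CPM, likewise had no count in PGC replicate 2, against 4.99 and 6.85 CPM in replicate 1. CRYBA4 had 8.12 and 0.268 CPM in PGCs against 8.0 and 12.2 CPM in soma. The exception was cryba1l1, which had 5.5 CPM in PGC replicate 2, 10.1 CPM in replicate 1 and 12.2 and 13.5 CPM in soma.

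Every lens gene was higher in somatic replicate 2 than in replicate 1, by 1.11-fold for cryba1l1 to 2.4-fold for CRYGN, and every one was higher in PGC replicate 1 than in replicate 2. Both statements held with library sizes normalised by the trimmed mean of M-values (TMM). Both PGC libraries of 36 hpf were below both somatic libraries for 6 of the 9, or for 7 with TMM library sizes, where 11.5% of all genes tested were below with CPM and 24% with TMM. The rule used the somatic values, so nothing is read from this count. Per kilobase of effective length the mean somatic level at 36 hpf was 41.5 CPM for CRYBB1, 25 CPM for cryba1b and 18.8 CPM for cryba1l1, against 5.85 CPM for MIP and 4.4 CPM for BFSP1. On this scale the 3 beta crystallins lay above the channel and the filament gene.

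**Figure D2:**
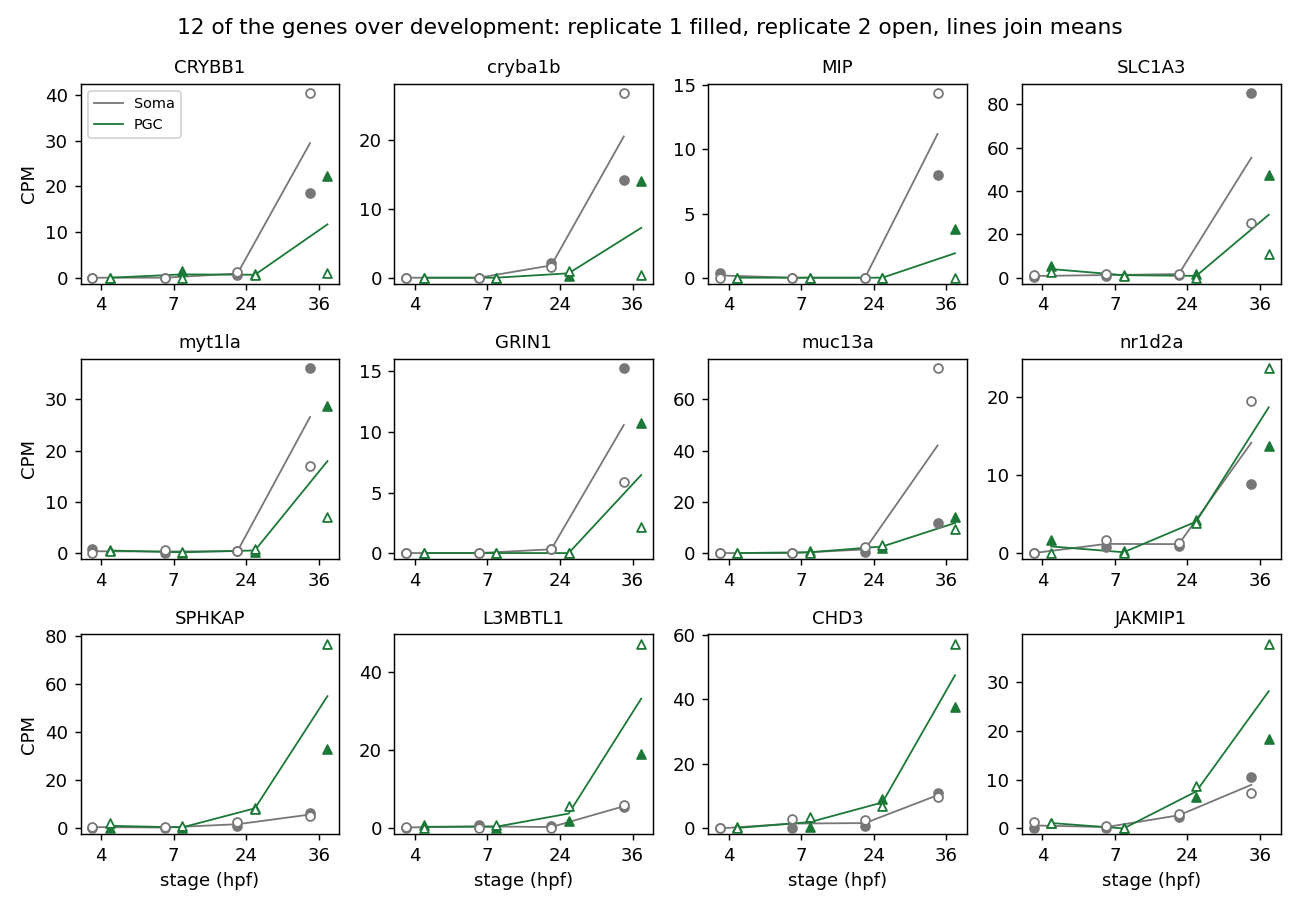
CPM of 12 of the genes at 4, 7, 24 and 36 hpf, drawn at equal steps, with soma as grey circles, PGCs as green triangles, replicate 1 filled, replicate 2 open and lines through the means. CRYBB1 reached 22.3 CPM in PGC replicate 1 and 1.07 CPM in replicate 2 at 36 hpf, whereas SPHKAP was above soma in both PGC libraries.

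Transcription factor and chromatin genes were the largest of the groups formed by role, with 20 of the 126. The roles were given after the values were seen, so they order the description and support nothing else. myt1la, a zinc finger factor of neurons, had 36.1 and 17.0 CPM in soma and 28.8 and 7.12 CPM in PGCs at 36 hpf, after at most 0.763 CPM in any library of 24 hpf. foxg1b, a forebrain forkhead gene, had 32.5 and 12.7 CPM in soma and 15.6 and 4.03 CPM in PGCs at 36 hpf. The homeobox genes SHOX and BARHL1 differed between the somatic replicates by 6.22 and 5.22 times. SHOX had 38.5 and 6.19 CPM in soma and 13.9 and 2.55 CPM in PGCs at 36 hpf. BARHL1, which acts in hindbrain neurons and hair cells, had 28.3 and 5.42 CPM in soma and 15.1 and 1.88 CPM in PGCs. In both cell types replicate 1 was the higher for each of these 4 genes.

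Photoreceptor genes were represented by their regulators only. Of 57 genes in a photoreceptor and pineal list, 2 met the rule, 9 had reached 3 CPM in soma by 24 hpf and 46 did not reach 5 CPM in both libraries of 36 hpf. The name table gives both of them the same symbol. CRX (ENSDARG00000043483) had 15.3 and 17.3 CPM in soma and 10.7 and 0.268 CPM in PGCs at 36 hpf. crx (ENSDARG00000011989) had 9.23 and 6.66 CPM in soma and 7.95 and 2.68 CPM in PGCs. POU4F2, a factor of retinal ganglion cells, had 9.23 and 6.97 CPM in soma and 5.92 and 0.134 CPM in PGCs. HES2, a basic helix-loop-helix repressor gene, had 15.5 and 17.7 CPM in soma and 11.3 and 0.403 CPM in PGCs, and IRX4 had no count in PGC replicate 2. All 5 were lower in PGC replicate 2 than in either somatic library of 36 hpf.

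Some genes of the group ran the other way. CHD3, a nucleosome remodeller of the NuRD complex, had 11.0 and 9.60 CPM in soma and 37.6 and 57.2 CPM in PGCs at 36 hpf. L3MBTL1, a malignant brain tumour domain protein that binds methylated histones, had 5.42 and 5.88 CPM in soma and 19.0 and 47.1 CPM in PGCs. NFIX, a nuclear factor I gene, had 5.29 and 6.50 CPM in soma and 10.3 and 16 CPM in PGCs. For these 3 genes both PGC libraries were above both somatic libraries and replicate 2 was the higher. nr1d2a, a circadian nuclear receptor gene, had 8.86 and 19.5 CPM in soma and 13.7 and 23.8 CPM in PGCs, so that the groups overlapped.

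Receptors, channels and transporters of neurons and glia made a further 16 genes. Of 73 genes in a list of neurons and glia, 49 had reached 3 CPM in soma by 24 hpf and 4 met the rule. SLC1A3, a glial glutamate transporter, had 85.2 and 25.4 CPM in soma and 47.1 and 10.9 CPM in PGCs at 36 hpf. At 24 hpf it had 1.45 and 1.93 CPM in soma and 1.69 and 0 CPM in PGCs. Both PGC libraries of 36 hpf were thus above both of 24 hpf, whereas in soma the rule set this order. GRIN1, the obligatory subunit of NMDA glutamate receptors, had 15.3 and 5.88 CPM in soma and 10.7 and 2.15 CPM in PGCs, with no count in PGCs at 24 hpf. Another was syn2b, a synapsin of synaptic vesicles that is counted below with the synapse genes, with 7.39 and 5.88 CPM in soma and 6.52 and 1.34 CPM in PGCs. In these 3 genes and in both cell types replicate 1 was above replicate 2.

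Among the other transporters SLC38A3, which carries glutamine, had 25 and 14.6 CPM in soma and 15.7 and 8.59 CPM in PGCs at 36 hpf. All 6 transporters were higher in somatic replicate 1, and all 6 were higher in PGC replicate 1. The 10 channel and receptor genes lay lower, with mean somatic levels of 5.34 to 12.5 CPM. ntrk2b, a receptor for brain-derived neurotrophic factor, had 6.40 and 6.19 CPM in soma and 7.02 and 5.77 CPM in PGCs. KCNJ6, an inward rectifier potassium channel, was higher in PGCs than in soma at 24 hpf, with 5.45 and 5.85 CPM against 1.77 and 2.22 CPM, and had 7.53 and 2.55 CPM in PGCs at 36 hpf. Thus ntrk2b overlapped with soma and KCNJ6 had values in PGCs at 24 hpf that overlapped with those at 36 hpf.

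Synapse, secretion and neural adhesion genes numbered 15. chgb, a chromogranin of secretory granules and the only member of 54 listed neuropeptide and hormone genes, had 31.4 and 12.4 CPM in soma and 5.67 and 2.42 CPM in PGCs at 36 hpf. SERPINI1, the secreted inhibitor neuroserpin, had 20.6 and 10.4 CPM in soma and 9.14 and 6.04 CPM in PGCs. SYT11, a synaptotagmin, had 21.7 and 8.83 CPM in soma and 10.3 and 1.48 CPM in PGCs. A pair of postsynaptic scaffold genes stood higher in PGCs. LRRC7, which encodes densin-180, had 7.14 and 5.27 CPM in soma and 19.3 and 28.2 CPM in PGCs at 36 hpf. shank1 had 6.89 and 6.97 CPM in soma and 11.7 and 11.1 CPM in PGCs, and both genes were above soma in both PGC libraries. A further scaffold gene, dlgap3, had 7.02 and 7.74 CPM in soma and 7.70 and 6.44 CPM in PGCs, and its groups overlapped.

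Signalling and microtubule transport genes numbered 7. KIF3C, a kinesin motor of neurons, had 31.1 and 13.5 CPM in soma and 18.4 and 12.4 CPM in PGCs at 36 hpf. MAPK10, the neuronal JNK kinase, had 26.5 and 9.29 CPM in soma and 15.7 and 1.88 CPM in PGCs, and was already at 6.88 and 5.34 CPM in PGCs at 24 hpf. SPHKAP, an anchoring protein for protein kinase A, had 6.28 and 5.27 CPM in soma and 33.1 and 76.8 CPM in PGCs at 36 hpf. It was also above soma at 24 hpf, with 8.57 and 8.14 CPM in PGCs against 0.964 and 2.52 CPM in soma. JAKMIP1, a microtubule-associated protein gene, had 10.6 and 7.28 CPM in soma and 18.4 and 37.9 CPM in PGCs. SPHKAP and JAKMIP1 were each higher in PGC replicate 2, and KIF3C and MAPK10 were each higher in replicate 1.

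Outside the nervous system and the eye, 3 genes of epithelium and pigment were higher in somatic replicate 2, by wide margins for muc13a and caspb and by little for GPNMB. muc13a, a membrane mucin gene of epithelia, had 11.8 and 72.2 CPM in soma and 14.2 and 9.26 CPM in PGCs at 36 hpf. caspb, an inflammatory caspase gene, had 6.52 and 39.8 CPM in soma and 4.4 and 1.34 CPM in PGCs. GPNMB, a glycoprotein of melanosomes and macrophages, had 22.7 and 26.2 CPM in soma and 15.4 and 2.95 CPM in PGCs. The somatic replicates thus differed by 6.11 times for muc13a and by 6.10 times for caspb, and both genes were higher in PGC replicate 1. Of the pigment cell list, 25 of 30 genes had reached 3 CPM in soma by 24 hpf and GPNMB alone met the rule. Of 37 listed inner ear genes 1 met it, sparcl1, a matricellular protein gene, with 7.14 and 8.05 CPM in soma and 6.01 and 7.65 CPM in PGCs.

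No gene of the lists for exocrine pancreas, late skeletal muscle, liver and plasma proteins, neutrophils and macrophages, cartilage and bone, epidermis, globins or smooth muscle and heart met the rule. The lists differed in which condition their genes missed. Of 61 late muscle genes 54 had reached 3 CPM in soma by 24 hpf, as had 10 of 15 globin genes and 33 of 46 cartilage and bone matrix genes. Of 30 exocrine pancreas genes 28 did not reach 5 CPM in both somatic libraries of 36 hpf. A further 56 members were given no role, among them ENSDARG00000107804, without a symbol, with 64.4 and 21.1 CPM in soma and 50.8 and 6.85 CPM in PGCs at 36 hpf.

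The somatic replicates of 36 hpf were not alike over these genes. Replicate 1 was higher for 86 and replicate 2 for 40, where replicate 1 was higher for 54.4% of all genes tested. With TMM library sizes replicate 1 was higher for 80, against 50.2%. The replicates lay within 1.5-fold of each other for 65 genes, and the ratio of replicate 1 to replicate 2 ran from 0.164 for muc13a to 6.22 for SHOX, with a median of 1.29. Replicate 1 was over 2-fold higher for 25 genes, and replicate 2 for 9. For the counts by fold the shares over all genes tested were not computed, so nothing is read from them. In whole sorted soma fewer cells of a type and less RNA per cell cannot be told apart. Marker genes of cell types that were present by 24 hpf differed between the somatic replicates in both directions. Neuronal markers summed to 2253 and 1090 CPM in somatic replicates 1 and 2 and blood markers to 2324 and 626 CPM, whereas epidermal markers summed to 4420 and 25507 CPM and notochord and cartilage markers to 498 and 4293 CPM. Skeletal muscle markers summed to 565 and 1896 CPM, those of yolk syncytial layer and liver to 6392 and 31.0 CPM and endothelial markers to 134 and 112 CPM. The 9 lens genes of the set were all higher in replicate 2. Lens and eye markers summed to 303 and 199 CPM, higher in replicate 1. That list holds the transcription factor genes crx, foxe3, pax6a and six6b and no crystallin, so it is not a measure of the same genes. Both crx genes in it belong to the 126, so the rule held them under 3 CPM in soma at 24 hpf. The part of these markers in the difference between the replicates was not tested.

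**Figure D3:**
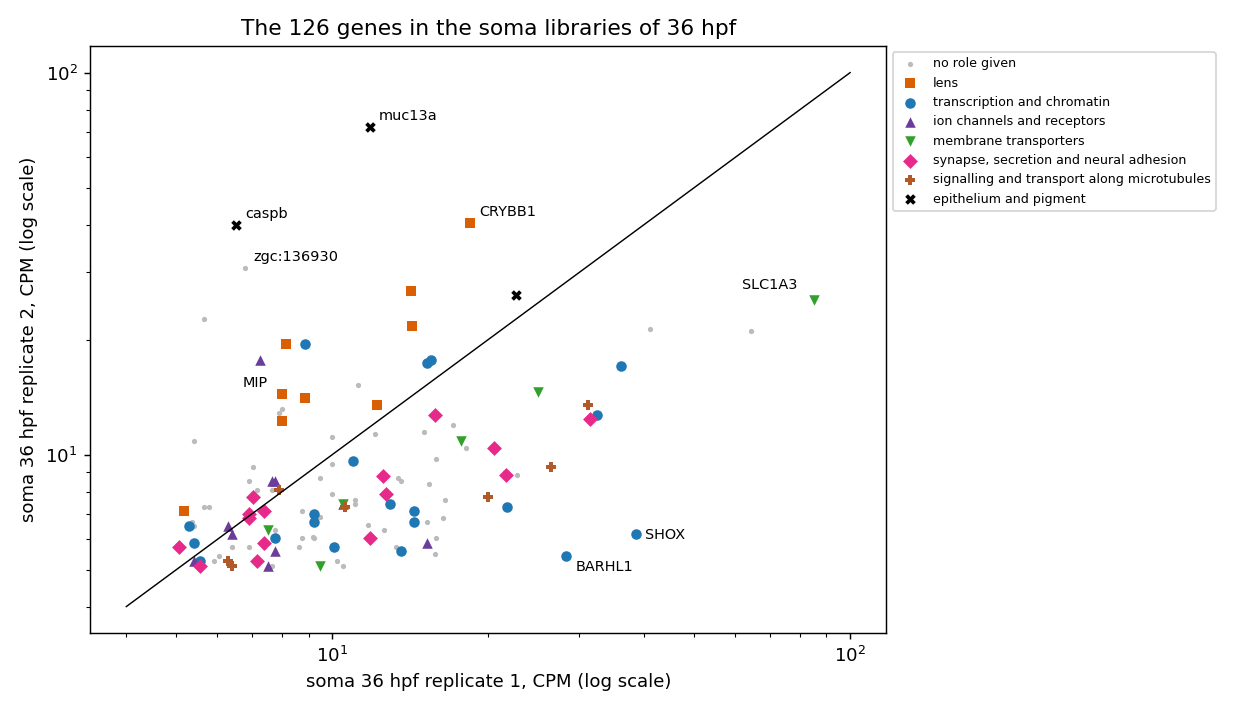
CPM of the 126 genes in somatic replicate 1 (x axis) and replicate 2 (y axis) of 36 hpf, both on log axes, with symbols by role and a line of equality. Lens genes and muc13a, caspb and GPNMB lie above the line, whereas SHOX, BARHL1 and SLC1A3 lie below it.

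In PGCs at 36 hpf the genes were detected at levels that depended on the library. Both PGC libraries reached 5 CPM for 58 genes, whereas 44 genes reached it in replicate 1 and were under 3 CPM in replicate 2, and 1 gene, PAQR6, did the opposite. For 5 genes both libraries were under 3 CPM. Replicate 1 was higher than replicate 2 for 98 of the 126 genes, against 37.0% of all genes tested, and with TMM library sizes for 109, against 49.4%. In CPM replicate 1 was over 2-fold higher for 62 genes and replicate 2 for 5. The latter were PAQR6, ENSDARG00000076268, L3MBTL1, SPHKAP and JAKMIP1. For the counts by level and by fold, neither shares over all genes tested nor counts with TMM were computed. Nothing is read from them.

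Relative to the somatic mean of 36 hpf the median over the genes was 0.878 in PGC replicate 1 and 0.356 in replicate 2. With the mean of both PGC libraries it was 0.614, with a range from 0.0758 to 9.52. The lowest ratios belonged to zgc:136930, with 6.77 and 30.8 CPM in soma and 1.78 and 1.07 CPM in PGCs, and to TKT, a transketolase gene, with 8.0 and 13.2 CPM in soma and 2.37 and 0 CPM in PGCs. The ratio was 0.0758 for zgc:136930, 0.112 for TKT, 0.124 for caspb, 0.170 for MIP and 0.177 for si:ch211-153f2.3. Both PGC libraries were below both somatic libraries for 39 of the 126 genes, where 11.5% of all genes tested were below, and with TMM library sizes for 63, where 24% were. Nothing is read from these shares, since the rule chose genes for high somatic values at 36 hpf. TMM lowered PGCs relative to soma at 36 hpf by 0.44 on the log2 scale over all genes.

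Markers of germ cells and of other cell types differed between the PGC libraries as well. The 18 germ line markers summed to 1770 CPM in replicate 1 and 5374 CPM in replicate 2, against 30.3 and 30.0 CPM in soma, and 17 of the 18 were lower in replicate 1. The 5 neuronal markers summed to 1558 and 216 CPM and the 7 lens and eye markers, which include both crx genes of the set, to 217 and 43.0 CPM. The 5 markers of yolk syncytial layer and liver summed to 7123 and 50.2 CPM, the 6 blood markers to 644 and 54.1 CPM and the 4 endothelial markers to 56.5 and 23.6 CPM. The 6 epidermal markers summed to 4011 and 2105 CPM, and the 8 notochord and cartilage markers to 322 and 244 CPM. Of these 8 markers only 4 were higher in replicate 1, and their median ratio of replicate 1 to replicate 2 was 0.837. The sum for skeletal muscle ran the other way, with 451 and 886 CPM over 9 markers. TBXT, of the notochord list, and TTR, of the yolk and liver list, were the only markers with 3 counts or fewer in both PGC libraries. Their part in the levels of the 126 genes in PGCs was not tested.

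**Figure D4:**
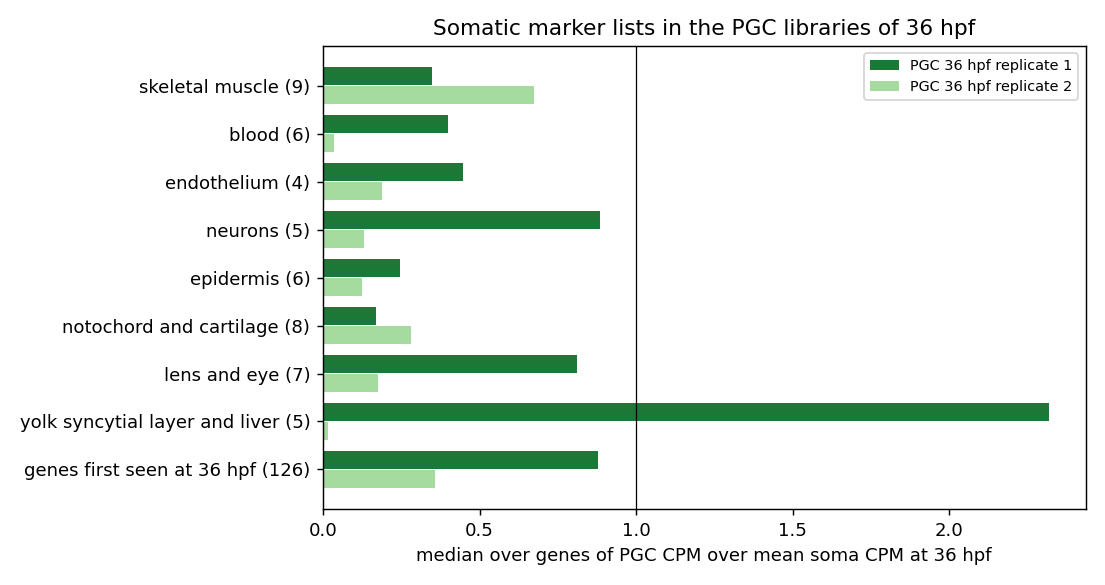
Median over genes of the level in PGC replicate 1 (dark) and replicate 2 (light) of 36 hpf divided by the somatic mean of 36 hpf, for 8 somatic marker lists and the 126 genes, with the number of genes in brackets and a line at 1. Neurons stand at 0.884 and 0.132, lens and eye at 0.810 and 0.175, and the 126 genes at 0.878 and 0.356.

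A smaller set of genes was higher in PGCs than in soma. Both PGC libraries of 36 hpf were above both somatic libraries for 17 of the 126 genes, or for 12 with TMM library sizes, where 41.4% of all genes tested were above with CPM and 29.1% with TMM. The same holds for these shares, because the rule limits how many genes PGCs can exceed. In CPM, PGC replicate 1 taken alone was above both somatic libraries for 29 genes and replicate 2 alone for 24. The share over all genes was not computed for single libraries, so nothing is read from these counts. In CPM the 12 genes had ratios of the means from 1.65 for shank1 to 9.52 for SPHKAP. Next to SPHKAP were L3MBTL1 with 5.85, CHD3 with 4.61, LRRC7 with 3.83 and JAKMIP1 with 3.15. With TMM library sizes the ratios of the 12 were smaller, from 1.24 for shank1 to 6.79 for SPHKAP. Others were ENSDARG00000076268, NFIX, FAM184A, brinp3a.1 and crb2b, a Crumbs polarity gene. PGC replicate 2 was the higher for 14 of the 17 genes, or for 10 with TMM library sizes. Over all genes tested replicate 1 was the higher for 37.0% with CPM and for 49.4% with TMM, so nothing is read from these counts. Most germ line markers were also higher in replicate 2, and their part in these values was not tested. Among all 126 genes replicate 2 was the higher for 28, or for 17 with TMM.

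**Figure D5:**
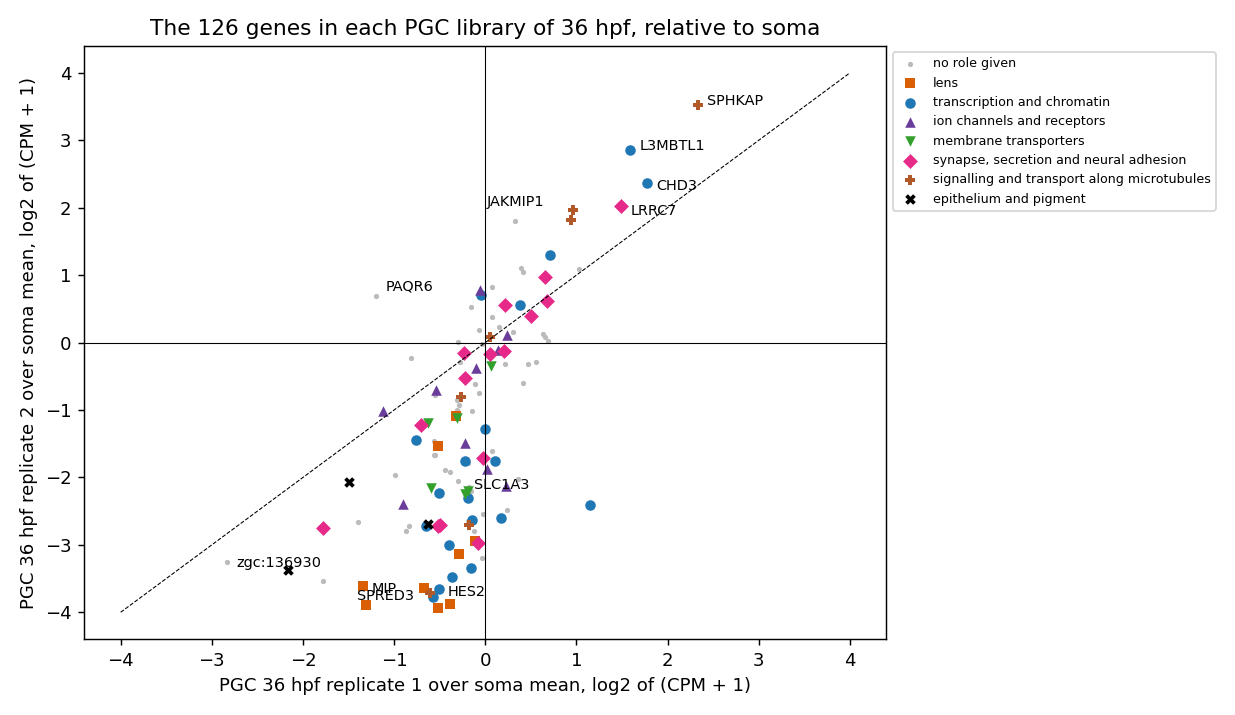
Level of the 126 genes in PGC replicate 1 (x axis) and replicate 2 (y axis) of 36 hpf relative to the somatic mean of 36 hpf, as differences of log2(CPM + 1), with symbols by role and a dashed line of equality. SPHKAP, L3MBTL1, CHD3 and LRRC7 lie to the upper right, and the lens genes lie near 0 or below on the x axis and well below 0 on the y axis.

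Part of the level in PGCs was there at 24 hpf. Both PGC libraries of 24 hpf were above both somatic libraries of that stage for 55 genes, with CPM and with TMM library sizes alike in number, where 17.3% of all genes tested were above with CPM and 20.4% with TMM. Nothing is read from these shares, since the rule held the somatic values under 3 CPM. Both reached 3 CPM for 27 genes and 5 CPM for 7, among them MAPK10, CHD3, KCNJ6, JAKMIP1, FAM184A and SPHKAP. FAM184A, of unknown role here, had 8.70 and 5.98 CPM in PGCs at 24 hpf and 16.7 and 17.3 CPM at 36 hpf. For 63 genes both PGC libraries of 24 hpf were under 3 CPM.

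The change in PGCs from 24 to 36 hpf was tested with edgeR's quasi-likelihood test over all 16 libraries, with Benjamini-Hochberg adjustment over 20536 genes and a threshold of 0.05 and 1.5 on the log2 scale. None of the 126 genes passed in either direction, where 0.185% of all genes tested were called higher and 1.69% lower. At an unadjusted p under 0.05 there were 15 genes, all higher in PGCs at 36 hpf, against 4.29% of all genes tested that were higher at that level. DESeq2 gave an adjusted p for 124 of the 126 and called 8 higher and none lower, where it called 1.11% of all genes with an adjusted p higher and 4.07% lower. The median log2 fold change was 1.05 over the 126 genes and 0.016 over all genes tested, with 97 of the 126 above 0. Without PGC replicate 1 of 36 hpf the median was 0.09 and 65 of the 126 were above 0. Without PGC replicate 2 of 36 hpf the median over the 126 genes was 1.38. It was 1.19 without PGC replicate 1 of 24 hpf and 1.21 without PGC replicate 2 of 24 hpf. The filter ran over all 16 libraries, so a gene could enter the test through the somatic libraries that chose it. In a fit of PGC libraries alone 104 of the 126 entered. Their median was 0.914, with 82 above 0, against a median of 0.043 over all genes in that fit.

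Among these genes SLC1A3 had the smallest adjusted p in the edgeR quasi-likelihood test, 0.0628, with a log2 fold change of 4.57 (SE 1.17). ENSDARG00000095715 followed with 5.05 (SE 1.26) and an adjusted p of 0.0777 in the same edgeR test, with 0.519 and 0.127 CPM in PGCs at 24 hpf and 28.5 and 3.62 CPM at 36 hpf. For myt1la the change was 4.47 (SE 1.22), with an edgeR adjusted p of 0.0785. In each of the 3 genes both libraries of 36 hpf were above both of 24 hpf, and replicate 1 of 36 hpf was the higher. Without that library the log2 fold changes were 2.89 for SLC1A3, 2.61 for ENSDARG00000095715 and 2.88 for myt1la. Without PGC replicate 1 of 24 hpf, the remaining library of that stage had no count for SLC1A3, so its value there moved by over 1.5 times and is no bound. GPNMB, SLC38A3, CRYBB1, crybb1l2, cryba1l1, HES2 and L3MBTL1 had log2 fold changes of 4.90, 2.87, 3.63, 3.71, 2.85, 4.28 and 2.31, none of which passed. For SPHKAP the log2 fold change was 1.95 and for CHD3 it was 1.84, and neither passed.

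Counted by library rather than tested, both PGC libraries of 36 hpf were above both of 24 hpf for 75 of the 126 genes, against 48.7% of all genes tested. With TMM library sizes, which lowered PGCs of 36 hpf relative to 24 hpf by 0.70 on the log2 scale over all genes, the count was 52, against 24.9% of all genes tested. None of the 126 lay below in both libraries, where 11.7% of all genes tested did. With TMM library sizes 1 did, where 26.1% of all genes tested did. For 63 of the 126 both PGC libraries of 24 hpf were under 3 CPM, which leaves little room to lie below. As 104 of the 126 entered the fit of PGC libraries alone, others may have entered the edgeR test only through the somatic libraries. The counts were not made for the 104 genes, so they are given as a description. In the same test 5 of the 18 germ line markers were called higher and 27 of the 54 late muscle genes tested were called lower in PGCs at 36 hpf, as was 1 lens gene outside the 126. Of the pigment cell list 4 of 27 genes tested were called higher, and of the neutrophil and macrophage list 1. No gene of the lens, photoreceptor or neuron and glia lists was called higher, which is near the share of 0.185% over all genes tested.

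Across the 126 genes the levels in PGC replicate 1 followed those in somatic replicate 1 with a Spearman coefficient of 0.54 and those in somatic replicate 2 with 0.25. For PGC replicate 2 the coefficients were -0.11 and -0.06. Between the PGC replicates the coefficient was 0.45, and between the somatic replicates it was 0.40. These coefficients run over genes of single libraries that share gene length and the rule's threshold, and are given as a description. The effective length of the genes had a median of 2172 bases, against 1813 bases over all genes tested.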

How the data were processed

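RNA-seq libraries were made by the authors from 1 to 3 ng of RNA with a stranded total RNA kit for low input. Reads were trimmed with Trim Galore, aligned to danRer10 with STAR and quantified with RSEM, and 3 tables were deposited. The deposited expected counts are estimates for each gene from RSEM, left unscaled, of which 95.2% are whole numbers. The deposited TPM values are scaled to gene length and a common total, and the deposited effective lengths are in bases. The strand setting of the counting is not given in the sources used here.

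CPM was computed from the deposited expected counts over gene rows without zgc:158463 and si:dkey-153m14.1, which took 10.6 to 39.1% of the counts at 36 hpf. The 92 spike-in rows were not used. Of the 126 genes, 111 were given a symbol by a table of names, with capitals where that table gives the name in capitals, and such names were also matched to listed zebrafish symbols without their last letter, a matching rule chosen after the tables were seen. No coordinates or sequences are given because no danRer10 annotation was used here.

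Rounded counts were tested in R 4.3.3 with edgeR 4.0.16 (filterByExpr with a minimum count of 10, TMM, quasi-likelihood test, 8 groups), with an adjusted p under 0.05 and a log2 fold change past 1.5 as thresholds. The script was tested on simulated data. DESeq2 1.42.0, limma 3.58.1 (log2 of TPM after adding 1 or 0.1), other filters, a replicate block and leaving out each library were the alternatives. P-values measure the spread between 2 libraries a group. With the replicate number as label, the deviations from the group means correlated between PGCs and soma by 0.24, 0.08, 0.18 and 0.28 in order of stage, and the numbers were not taken as pairs.

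The genes, the gene lists and the marker lists were chosen with earlier results of these data known. Genes named were those in a list, the 20 with the highest mean somatic CPM at 36 hpf, the 5 with the highest and the 5 with the lowest PGC to soma ratio, and those beside the thresholds. The last replaced genes beside the limit of 150, which was not reached. Other genes were named after their values were seen, and some genes that the rule names are not reported here.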

Additional observations from a re-analysis of the deposited data

How the results depend on the processing

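No gene of the 126 was called lower in PGCs from 24 to 36 hpf under any alternative run. Not all of the 126 entered every fit: 109 entered with a stricter filter, 104 with PGC libraries alone and 108 in each limma fit. The totals of genes that entered each alternative fit are not all given here, so the counts are not compared as shares. The number called higher was 0 in the edgeR quasi-likelihood test, with a stricter filter, with PGC libraries alone and without the 2 genes of largest total. It was 8 with DESeq2, 11 with no filter, 9 with the likelihood ratio test, 15 with limma on log2(TPM + 1) and 8 on log2(TPM + 0.1), and 0 to 1 leaving out single libraries. Over all genes, 38 were called higher and 347 lower. The higher count was 192 with DESeq2, 227 with no filter, 230 with the likelihood ratio test, 59 with PGC libraries alone, 1755 and 470 with limma at a pseudocount of 1 and 0.1, and 0 to 137 leaving out single libraries. The lower count was 706 with DESeq2, 993 with no filter, 853 with the likelihood ratio test and 0 to 820 leaving out single libraries. The highest of these counts over all genes came without PGC replicate 1 of 36 hpf and the counts of 0 without PGC replicate 2 of 36 hpf, while without PGC replicates 1 and 2 of 24 hpf the higher counts were 8 and 1 and the lower 192 and 24. In the fit with a replicate block 1 of the 126 genes, SLC1A3, was called higher, and 50 genes of all were called higher and 438 lower. The correlation of same-numbered PGC libraries of 24 and 36 hpf was 0.063. The rule itself gave 98 genes with TMM library sizes, 86 of them shared, and 86 with CPM over all gene rows, 41 of them shared. It gave 17 genes with a limit of 1 CPM up to 24 hpf and 24 genes with a limit of 10 CPM at 36 hpf. Leaving out a single somatic library of 24 or 36 hpf drops a condition of the rule and can only add genes. The count was then 191 to 308, with all 126 kept. The median ratio of PGCs to soma at 36 hpf was 0.497 with TMM, 0.723 with TPM and 0.356 to 0.878 leaving out single libraries. The cause of these shifts was not tested.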
